A study of Mus musculus with 12 samples.

Results

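The transcripts described here are the snoRNA host genes, genes whose introns carry small nucleolar RNAs (snoRNAs). The members are 10 gene symbols, Gas5, Snhg1, Snhg3, Snhg4, Snhg5, Snhg6, Snhg7, Snhg8, Snhg12 and Taf1d, found by name among the 23235 entries of the deposited expression table, and all 10 were present. In the RefSeq annotation of GRCm38.p6, 9 are long noncoding RNAs and 1, Taf1d, codes for a protein. Levels are FPKM, fragments scaled by transcript length and by the mapped fragments of a library, as deposited by the authors.

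Oocytes of mice at day 14 were divided by micromanipulation into nucleus and cytoplasm, and total RNA was sequenced after removal of ribosomal RNA, from 10 nuclei or 10 cytoplasms per sample. The 4 groups were nuclei of Mtr4-null oocytes, nuclei of wild-type (WT) oocytes, cytoplasms of Mtr4-null oocytes and cytoplasms of WT oocytes, each with 3 libraries. No further treatment is labelled. The sources used here do not give the strain, the allele, the line that drives the deletion or the number of mice, and each sample pools several cells. The labels do not state whether replicate libraries derive from different animals, and p-values therefore reflect library-to-library spread that could be technical. MTR4 (gene symbol Skiv2l2 in the table) is the RNA helicase that feeds transcripts into the nuclear exosome, a complex of ribonucleases.

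SnoRNAs guide the chemical modification of ribosomal RNA, and a few of them take part in its cleavage. In vertebrates most snoRNAs are not transcribed alone: they are cut out of the introns of a host transcript after splicing, and exonucleases, among them the nuclear exosome, trim their ends. The spliced exons left over from a noncoding host often have short reading frames, and several such transcripts are known to be destroyed in the cytoplasm by nonsense-mediated decay when ribosomes read them. Growing oocytes build up a large store of ribosomes, and so make much ribosomal RNA.

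RefSeq places 35 snoRNA genes inside the 10 hosts: 8 each in Gas5 and Snhg1, 6 in Taf1d, 4 in Snhg12, 2 each in Snhg3, Snhg5 and Snhg7, and 1 each in Snhg4, Snhg6 and Snhg8. In the gene models of GENCODE M21, 32 of the 35 lie in introns of their host. The other 3 belong to Snhg4 and Snhg7, for which no model of that name was found there.

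Vertebrate genes for ribosomal proteins and many snoRNA hosts are known for start sites within a run of pyrimidines (C and T). The start regions below are shown because they hold sequence features that most of these genes share. A link between these features and the levels in nucleus or cytoplasm was not tested. RefSeq (GRCm38.p6) start regions were matched by symbol for 8 members with 9 start sites, and none was matched for Snhg4 and Snhg6. Each sequence has 50 bases before and 50 bases from the start site on, on the strand of the gene. Capitals mark the letters TATA within 45 to 15 bases before the start and the longest run of C or T of at least 6 bases that touches the 15 bases on either side of the start.
Gas5, second start, chr1:161035116-161035215, plus strand: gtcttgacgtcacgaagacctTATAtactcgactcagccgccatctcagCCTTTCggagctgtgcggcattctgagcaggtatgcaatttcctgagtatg
Snhg7, chr2:26640195-26640294, minus strand: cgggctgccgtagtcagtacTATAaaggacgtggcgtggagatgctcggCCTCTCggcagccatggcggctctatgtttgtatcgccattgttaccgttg
Snhg8, chr3:123508287-123508386, minus strand: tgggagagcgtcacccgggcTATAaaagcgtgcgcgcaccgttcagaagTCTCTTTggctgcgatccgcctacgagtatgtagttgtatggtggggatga
Snhg12, chr4:132308628-132308727, plus strand: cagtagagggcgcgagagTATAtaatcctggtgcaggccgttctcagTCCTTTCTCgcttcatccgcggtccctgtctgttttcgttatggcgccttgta
Snhg5, chr9:88522848-88522947, minus strand: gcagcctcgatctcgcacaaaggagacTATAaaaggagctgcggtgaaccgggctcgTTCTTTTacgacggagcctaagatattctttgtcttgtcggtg
Snhg1, chr19:8723437-8723536, plus strand: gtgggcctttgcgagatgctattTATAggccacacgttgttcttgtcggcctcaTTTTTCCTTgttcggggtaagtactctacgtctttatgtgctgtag
Snhg3, chr4:132353637-132353736, minus strand: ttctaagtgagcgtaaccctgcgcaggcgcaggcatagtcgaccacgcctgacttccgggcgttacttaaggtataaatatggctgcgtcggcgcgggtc

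Both features stood at the same start in 6 of 8 members: Gas5, Snhg1, Snhg5, Snhg7, Snhg8 and Snhg12. Among the 27025 genes of the RefSeq table outside chromosome 18, 3.19% held both. TATA was found in 6 of 8 members and in 7.93% of these genes, and a run of at least 6 pyrimidines in 6 of 8 members and in 41.2% of these genes. The letters were searched on the strand of the gene, and the runs and TATA did not overlap. At the second Gas5 start and in Snhg7 and Snhg8 the run began 1 base before the annotated start, and in Snhg12 it began 3 bases before it. In Snhg1 and Snhg5 the run lay after the start, beginning at bases 5 and 8 counted from it. The first Gas5 start, not printed, held no TATA in the window, and its longest run had 3 bases. Snhg3, printed last without capitals, and Taf1d held neither feature in these windows. A match describes letters and says nothing of a factor bound there.

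Oocyte markers were high in every library, such as Gdf9 at 728 to 3482 FPKM. Of 8 blood and endothelial markers the 3 haemoglobin genes were at 0 throughout, while Pecam1 was at 2.81 to 16.9 FPKM, and the list summed to 5.34 to 18.1 FPKM. The 14 granulosa cell markers summed to 26.4 to 140.8 FPKM, led by Serpine2 (12.6 to 113.1 FPKM) and Nr5a2 (4.77 to 30.6 FPKM), with Foxl2 at no more than 0.541 FPKM. The 11 theca and stroma markers summed to 37.6 FPKM in WT nucleus replicate 2, with Col1a1 at 18.4 FPKM, and to 0.343 to 5.9 FPKM in the other libraries. The part of these markers in the member values was not tested. One small nuclear RNA, Scarna2, made up 58.0 to 81.7% of all FPKM in nuclei and 0 to 5.13% in cytoplasms, and the median log2 fold change of all genes tested between nucleus and cytoplasm was -0.82 in Mtr4-null and -0.90 in WT oocytes. Nuclear values of other genes are therefore read against that median. Skiv2l2 was at 1.04, 0.315 and 0.700 FPKM in Mtr4-null cytoplasms, against 21.1, 19.4 and 20.2 FPKM in WT cytoplasms (limma log2 fold change -3.68 ± 0.57, adjusted p = 0.00481). In the nuclei labelled Mtr4-null it was at 7.98, 0.182 and 1.12 FPKM, against 6.06, 2.45 and 5.37 FPKM in WT nuclei, so replicate 1 of the nuclei labelled Mtr4-null goes against its label. The nuclear difference in Skiv2l2 did not pass with all libraries (-0.93 ± 0.57, limma adjusted p = 0.42). Its log2 fold change was -1.76 without that library and -2.19 without replicates 1 and 3, which leaves 1 Mtr4-null nucleus. Replicate 1 of the nuclei labelled Mtr4-null was doubted for its Skiv2l2 value, so fits without it are no test of Skiv2l2. Replicate 3 of the same group also stood apart: its oocyte markers summed to 13090 FPKM, against 3548 to 7694 FPKM in the other nuclei and 12320 to 18010 FPKM in the cytoplasms. Calls of members that differ without these libraries are given beside the results. Total counts were not used here, so the depth behind each value is unknown and no detection limit is given. Since these are bulk samples, fewer cells of a kind and less RNA per cell cannot be told apart.

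In WT oocytes the host transcripts had higher mean FPKM in the nuclear than in the cytoplasmic libraries. FPKM are shares of a library, and the RNA amount of each compartment was not used here. The values therefore do not tell in which compartment most copies of a transcript lay. All 10 had a higher mean level in WT nuclei than in WT cytoplasms, and 8 of 10 rose at an adjusted p below 0.05 while 0 fell, where 12% of the 13157 genes tested rose and 45% fell. The test was limma on log2(FPKM + 1) with the 4 groups in 1 fit and Benjamini-Hochberg adjustment over all genes tested, and ± after a log2 fold change is the standard error. The median log2 fold change of the 10 was 2.39, beside -0.90 for all genes tested. In 9 of 10 the libraries of the 2 compartments did not overlap (14.1% of all genes tested lay apart in that direction), and Snhg5 was the exception. Median-of-ratios rescaling of the libraries put the median of all genes at 0.00 and that of the members at 3.18, with 9 of 10 called higher, where 19.3% of all genes did (2539 rose and 1295 fell, in place of 1583 and 5926). Under quantile normalization 9 members also rose, with 12.2% of all genes (1606 higher and 1798 lower), and likewise 9 after rescaling without small RNA entries, with 17.3% (2275 higher and 1180 lower).

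Taf1d, a subunit of the SL1 complex that places RNA polymerase I on ribosomal RNA genes, was the highest member in the nucleus, at 43.5, 26.7 and 39.1 FPKM in WT nuclei and 8.72, 6.59 and 5.94 FPKM in WT cytoplasms. Its log2 fold change was 2.2 ± 0.37 (limma adjusted p = 0.000639). Snhg1, in which the spliced exons have no known protein product, was at 43.0, 24.3 and 38.7 FPKM in WT nuclei, against 9.89, 16.3 and 20.3 FPKM in WT cytoplasms. Its change of 1.15 ± 0.40 (limma adjusted p = 0.0246) was the smallest of the 8 that were called. These 2 genes stood above the other 8 in WT nuclei without overlap between Snhg1 and the next, Snhg6, and Taf1d and Snhg1 overlapped each other. In WT cytoplasms Snhg1 was highest and Taf1d second, with no overlap between them.

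Snhg8 had the largest difference between the compartments, at 8.24, 7.5 and 6.88 FPKM in WT nuclei and 0.125, 3.56e-06 and 0.0886 FPKM in WT cytoplasms. Its fold change on the log2 scale was 2.99 ± 0.53 (limma adjusted p = 0.000836), which the added 1 FPKM holds down at such low levels. Snhg4 was at 10.2, 2.68 and 8.34 FPKM in WT nuclei, against 0.307, 0.148 and 0.0544 FPKM in WT cytoplasms (2.64 ± 0.41, limma adjusted p = 0.00035). Both transcripts were thus near the bottom of the scale outside the nucleus. Gas5, a transcript named for its build-up in growth-arrested cells, whose RNA is known to bind the glucocorticoid receptor, was at 4.80, 3.89 and 4.11 FPKM in WT nuclei, with 0.495, 0.337 and 0.175 FPKM in WT cytoplasms (1.98 ± 0.28, limma adjusted p = 0.000206). Gas5 had the least spread between WT nuclei relative to its level of any member but Snhg8. Snhg12 held 4.16, 7.58 and 5.46 FPKM in WT nuclei, and it was listed at 0.181, 0 and 0.128 FPKM in WT cytoplasms (2.58 ± 0.53, limma adjusted p = 0.00171). Genes were tested if they reached 1 FPKM in 3 or more of the 12 libraries. Outside WT nuclei Snhg12 reached 1 FPKM only in replicate 3 of the nuclei labelled Mtr4-null. It thus passed this filter only through WT nuclei, and its calls against them, also among the 8 called members, are no separate support.

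Snhg3, the host of a pair of snoRNAs known to act in the cleavage of ribosomal RNA precursors, was at 19.7, 4.36 and 11.3 FPKM in WT nuclei, while WT cytoplasms were listed at 0, 1.40 and 0.442 FPKM (2.87 ± 0.72, limma adjusted p = 0.00463). Snhg7 was at 19.4, 6.60 and 3.26 FPKM in WT nuclei, against 0.405, 0.173 and 0.479 FPKM in WT cytoplasms (2.69 ± 0.70, limma adjusted p = 0.00556). The WT nuclei spread widely for both, with WT nucleus replicate 1 highest. Snhg6 was at 20.6, 15 and 6.48 FPKM in WT nuclei, against 5.37, 5.05 and 3.55 FPKM in WT cytoplasms, and Snhg5 at 5.19, 13.2 and 13.1 FPKM in WT nuclei and 5.59, 4.22 and 3.32 FPKM in WT cytoplasms. Snhg6 (1.29 ± 0.72, limma adjusted p = 0.134) and Snhg5 (1.02 ± 0.45, limma adjusted p = 0.0637) did not pass the test with all 4 groups, and all 10 members passed in a limma fit of the WT libraries alone, where 13.1% of genes rose. From the third to the last place, each member's WT nuclei overlapped with those of its neighbour in the order Snhg6, Snhg3, Snhg5, Snhg7, Snhg8, Snhg4, Snhg12 and Gas5. Gas5, Snhg3, Snhg4, Snhg7, Snhg8, Snhg12 and Taf1d were called in all 22 settings run, counting each library left out. For Snhg12 these calls carry the limit of the filter given above. The call of Snhg1 was lost without WT nucleus replicate 1, WT nucleus replicate 3, WT cytoplasm replicate 1 or WT cytoplasm replicate 2 (highest limma adjusted p = 0.118). Snhg5 passed without WT nucleus replicate 1 or without replicate 1 or 3 of the nuclei labelled Mtr4-null (lowest adjusted p = 0.0235), and Snhg6 without replicate 2 of those nuclei (adjusted p = 0.0105).

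**Figure D1:**
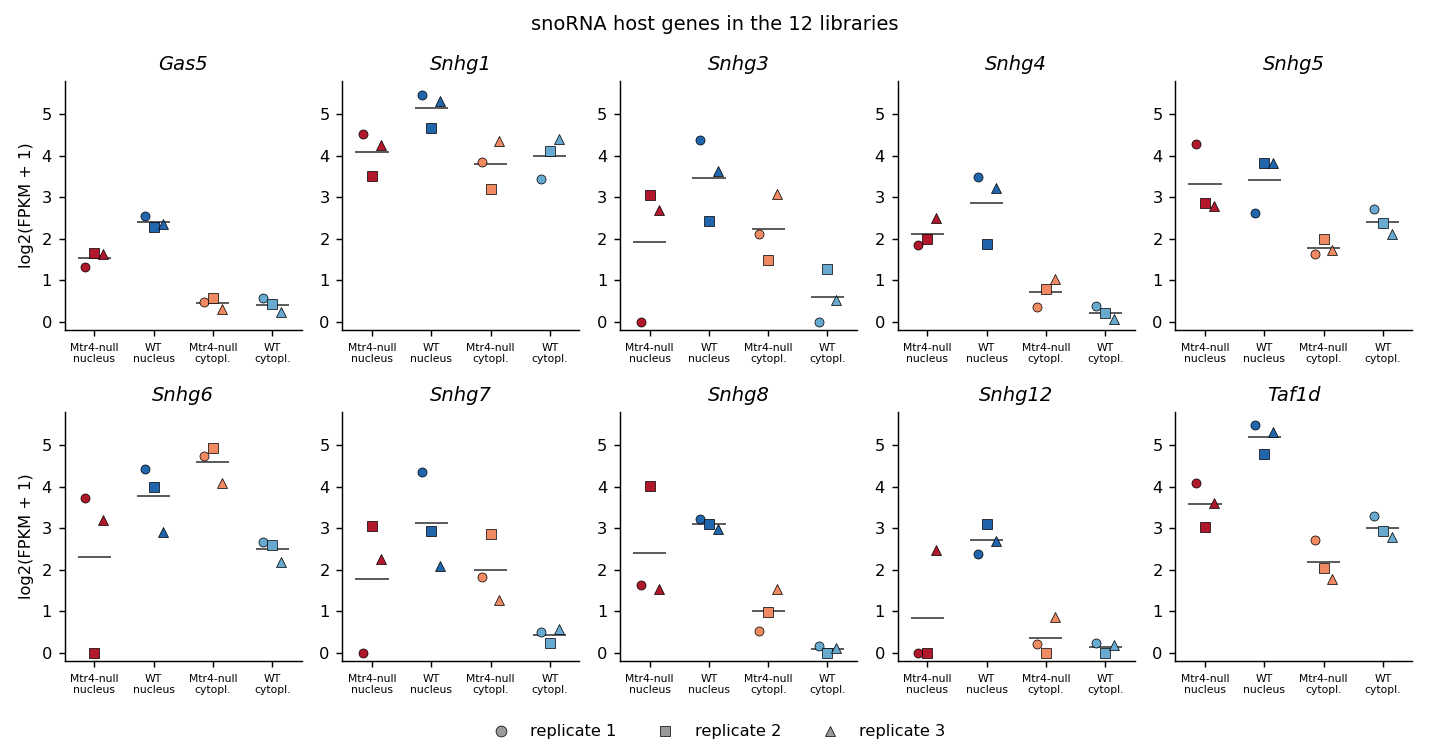
Level of each snoRNA host gene in the 12 libraries, as log2(FPKM + 1) on the vertical axis, with the groups Mtr4-null nucleus, WT nucleus, Mtr4-null cytoplasm and WT cytoplasm from left to right. Each symbol is a library and each line the mean of 3. WT nuclei stand above WT cytoplasms without overlap in 9 panels, and in the Gas5, Snhg1 and Taf1d panels the Mtr4-null nuclei stand below the WT nuclei without overlap.

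A list of 34 other protein-coding hosts of snoRNAs, all tested, was counted in the same way. Of these, 0 rose and 27 fell in WT nuclei against WT cytoplasms, with a median log2 fold change of -1.36. Most of these falls went with the scale of the nuclear libraries: after median-of-ratios rescaling 2 rose (Dkc1 and Rnf149) and 7 fell, with a median of -0.26, and under the other 2 scalings 1 rose and 5 fell. Among 5 further noncoding hosts, 3 were tested and 2 rose, 1500012F01Rik and Rian. 1500012F01Rik, listed as a host of snoRNAs of the box C/D kind, was at 20.4, 10.5 and 14.0 FPKM in WT nuclei, against 1.91, 0.786 and 1.06 FPKM in WT cytoplasms (2.81 ± 0.48, limma adjusted p = 0.000648). Rian, an imprinted transcript that carries an array of snoRNAs, was at 8.79, 2.41 and 6.63 FPKM in WT nuclei, against 0.129, 0.415 and 0.488 FPKM in WT cytoplasms (2.25 ± 0.49, limma adjusted p = 0.00233). The difference between these lists was not tested. Taf1d was the exception among 4 tested genes of the SL1 complex: it rose, while Taf1b and Tbp fell, and under each of the 3 scalings Taf1d alone was called. Of 8 tested genes that lie next to members, 0 rose and 5 fell in WT nuclei (Matr3, Prss12, Rcc1, Slc3a2 and Trnau1ap), and under each of the 3 scalings 0 fell.

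The same comparison was made within Mtr4-null oocytes. Of 10 members, 4 were higher in Mtr4-null nuclei than in Mtr4-null cytoplasms (4.08% of all genes tested) and 1, Snhg6, was lower (28.1% of all genes tested), and the median log2 fold change of the 10 was 0.78, beside -0.82 for all genes. By fold change 7 of 10 were above 0, and 9 of 10 under each of the 3 scalings. The 4 were Gas5, Snhg4, Snhg5 and Taf1d. Snhg6 was at 12.2, 0 and 8.10 FPKM in nuclei labelled Mtr4-null and 25.5, 29.6 and 16.0 FPKM in Mtr4-null cytoplasms (-2.28 ± 0.72, limma adjusted p = 0.0387). By mean FPKM it was the one member of the 10 that was lower in the nucleus than in the cytoplasm of Mtr4-null oocytes.

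Gas5 was at 1.48, 2.16 and 2.1 FPKM in nuclei labelled Mtr4-null and 0.385, 0.476 and 0.231 FPKM in Mtr4-null cytoplasms (1.09 ± 0.28, limma adjusted p = 0.0333). Taf1d was at 15.9, 7.17 and 11.2 FPKM in nuclei labelled Mtr4-null and 5.55, 3.11 and 2.41 FPKM in Mtr4-null cytoplasms (1.40 ± 0.37, limma adjusted p = 0.0342). For both the compartments did not overlap. Snhg4 was at 2.62, 2.98 and 4.63 FPKM in nuclei labelled Mtr4-null and 0.273, 0.739 and 1.03 FPKM in Mtr4-null cytoplasms (1.39 ± 0.41, limma adjusted p = 0.0358). Snhg5, host of a snoRNA gene pair, was at 18.4, 6.30 and 5.89 FPKM in nuclei labelled Mtr4-null and 2.09, 2.95 and 2.29 FPKM in Mtr4-null cytoplasms (1.54 ± 0.45, limma adjusted p = 0.0358). The nuclei lay above the cytoplasms without overlap in these 4 members and in Snhg8 (5.95% of all genes tested), and below them without overlap in Snhg6 (35.8%). The highest Snhg5 value of all 12 libraries was that of the library labelled Mtr4-null nucleus replicate 1.

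The other 5 did not pass. Snhg8 was at 2.08, 15.3 and 1.89 FPKM in nuclei labelled Mtr4-null and 0.445, 0.963 and 1.87 FPKM in Mtr4-null cytoplasms (1.39 ± 0.53, limma adjusted p = 0.0547). Snhg12 was listed at 0, 0 and 4.54 FPKM in those nuclei and 0.161, 0 and 0.811 FPKM in those cytoplasms (0.47 ± 0.53, limma adjusted p = 0.465). Both rest on 1 high nucleus, a different one for each gene. Snhg3 was listed at 0, 7.26 and 5.49 FPKM in those nuclei and 3.33, 1.80 and 7.46 FPKM in those cytoplasms (-0.31 ± 0.72, limma adjusted p = 0.723). Snhg7 was listed at 0, 7.34 and 3.74 FPKM in those nuclei and 2.52, 6.24 and 1.41 FPKM in those cytoplasms (-0.21 ± 0.70, limma adjusted p = 0.806). Snhg3 and Snhg7 overlapped between the compartments, and with replicate 1 of those nuclei left out, in which both were listed at 0, their log2 fold changes were 0.64 and 0.67. Snhg1 was at 21.9, 10.4 and 18.1 FPKM in those nuclei and 13.3, 8.23 and 19.6 FPKM in those cytoplasms (0.29 ± 0.40, limma adjusted p = 0.551).

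The calls within Mtr4-null oocytes depended on the estimate of spread. A limma fit of the Mtr4-null libraries alone called 0 of 10 members and 0.935% of all genes, and at an unadjusted p below 0.05 the fit of 4 groups had 6 of 10 members and 53% of all genes. Leaving out any 1 of the 6 cytoplasm libraries also left 0 members called, with limma adjusted p of up to 0.116 for Gas5 and 0.0944 for Taf1d. Leaving out replicate 1 of the nuclei labelled Mtr4-null ended the calls of Snhg4, Snhg5 and Taf1d, and leaving out replicate 2 ended those of Gas5, Snhg4, Snhg5 and Snhg6, while without replicate 3 there were 6 members called and 64.8% of all genes. Under the 3 scalings 0 members fell, with Snhg6 at -1.79 to -1.72 (adjusted p of 0.261 to 0.305). Median-of-ratios rescaling had 4 members higher and 4.64% of all genes (611 higher and 35 lower, in place of 537 and 3693), quantile normalization 2 members and 3% of genes (395 higher and 112 lower), and rescaling without small RNA entries 4 members and 3.81% of genes (501 higher and 28 lower). Without both replicates 1 and 3 the called members were Gas5 (1.22), Snhg8 (3.02) and Snhg6 (-4.58), where 4.7% of all genes rose and 59.7% fell.

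**Figure D2:**
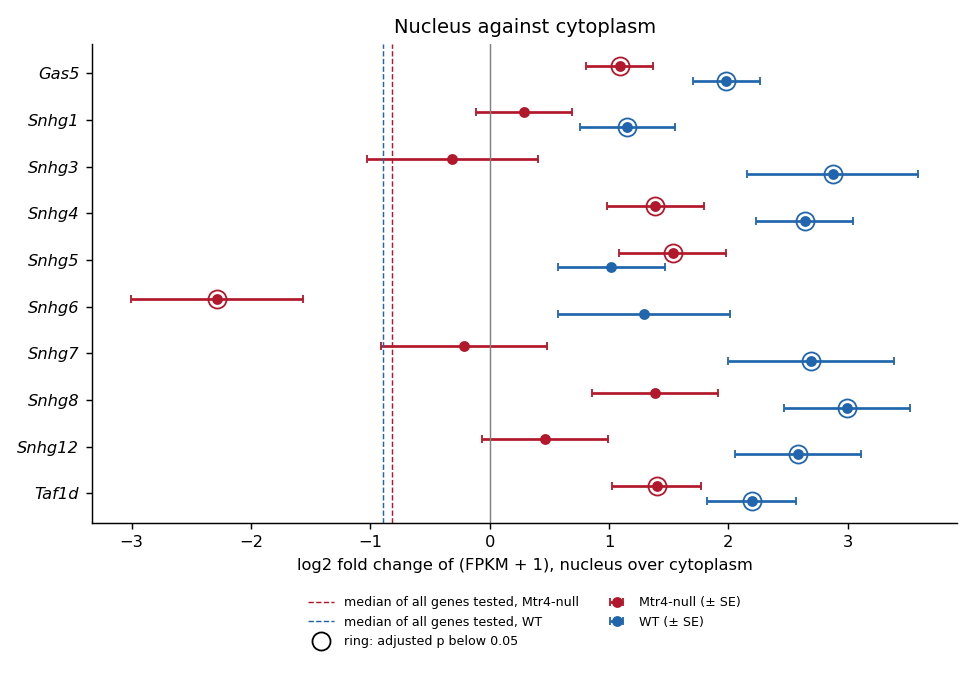
Log2 fold change of each snoRNA host gene between nucleus and cytoplasm (horizontal axis, positive is higher in the nucleus) in Mtr4-null oocytes (red, upper point) and WT oocytes (blue, lower point), with bars of 1 standard error from limma and rings at an adjusted p below 0.05. Dashed lines are the medians of all genes tested, -0.82 and -0.90. All blue points are above 0, and Snhg6 has its red point at -2.28.

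The nuclei labelled Mtr4-null had lower FPKM of the host transcripts than WT nuclei by every member's log2 mean, and the test passed for Taf1d. Log2 fold changes ran between -1.90 and -0.11, with a median of -1.20 beside 0.04 for all genes tested. Of 10 members 1 fell and 0 rose, where 1.75% of all genes tested fell and 0.517% rose. Gas5, Snhg1 and Taf1d did not overlap between the genotypes (6.7% of all genes tested lay apart in that direction). The summed level of the 10 members was 74.5, 58.9 and 65.8 FPKM in nuclei labelled Mtr4-null, against 178.8, 111.8 and 136.7 FPKM in WT nuclei. The sums did not overlap, and this held for the 8 members other than Taf1d and Snhg1 too, at 36.8, 41.3 and 36.4 FPKM in nuclei labelled Mtr4-null against 92.3, 60.8 and 58.9 FPKM in WT nuclei. Other noncoding RNAs were lower in the same libraries: 7 nuclear noncoding RNAs summed to 359.7, 136.4 and 180.6 FPKM in nuclei labelled Mtr4-null, against 688.8, 401.1 and 810.7 FPKM in WT nuclei, and the 5 of them tested had a median log2 fold change of -1.46, all negative. The 3 tested noncoding hosts outside the members were negative too, with a median of -1.08. The part of this in the member values was not tested.

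Taf1d averaged 11.4 ± 4.35 FPKM in nuclei labelled Mtr4-null and 36.4 ± 8.73 FPKM in WT nuclei (SD, n = 3 each), a log2 fold change of -1.62 ± 0.37 (limma adjusted p = 0.0356). Gas5 averaged 1.91 ± 0.379 FPKM in nuclei labelled Mtr4-null and 4.27 ± 0.477 FPKM in WT nuclei (SD, n = 3 each), and its change of -0.86 ± 0.28 did not pass (limma adjusted p = 0.117). Snhg1 averaged 16.8 ± 5.86 FPKM in nuclei labelled Mtr4-null and 35.3 ± 9.83 FPKM in WT nuclei (SD, n = 3 each), with a change of -1.05 ± 0.40 (limma adjusted p = 0.177). For all 3 the difference of the means was larger than the SD of either group. Snhg12 had the lowest fold change, -1.90 ± 0.53 (limma adjusted p = 0.0689). It passed the filter on low values only through the WT nuclei, so its tests against them are no separate support. Among the nuclei labelled Mtr4-null it was listed at 0 in replicates 1 and 2 and at 4.54 FPKM in replicate 3, within the range of the WT nuclei. Without replicate 3 Snhg12 passed along with Taf1d (-2.72, adjusted p = 0.00327), where 2.53% of all genes fell.

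The other 6 overlapped. Their log2 fold changes were -1.56 ± 0.72 for Snhg3, -1.48 ± 0.72 for Snhg6, -1.36 ± 0.70 for Snhg7, -0.75 ± 0.41 for Snhg4, -0.70 ± 0.53 for Snhg8 and -0.11 ± 0.45 for Snhg5, with limma adjusted p between 0.263 and 0.925. For Snhg3, Snhg6 and Snhg7, 1 of the nuclei labelled Mtr4-null was listed at 0 and the other 2 lay within the range of the WT nuclei. Snhg8 was highest of all 12 libraries in replicate 2 of the nuclei labelled Mtr4-null, which also had the least Skiv2l2 of the nuclei.

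The call of Taf1d held without replicate 1 (-1.88, limma adjusted p = 0.00927), without replicate 3 (-1.64, adjusted p = 0.0434) and without both of the doubted nuclei labelled Mtr4-null (-2.17, adjusted p = 0.0041). It was lost without replicate 2 of those nuclei, without WT nucleus replicate 1 or 3, without any WT cytoplasm library and without Mtr4-null cytoplasm replicate 2 or 3 (highest adjusted p = 0.131), with a pseudocount of 0.1 (adjusted p = 0.0829) or library weights (adjusted p = 0.191), and in a limma fit of the nuclei alone (adjusted p = 0.446), which called 0 of 10 members and 0.038% of all genes. Without both doubted nuclei, a fit that leaves 1 Mtr4-null nucleus, whose spread is assumed to be like that of the other groups, Snhg1 (-1.64), Snhg6 (-3.78) and Snhg12 (-2.72) were called as well, where 25.2% of all genes fell. The same setting turned the direction of Snhg8 (0.94, adjusted p = 0.0868). At an unadjusted p below 0.05 there were 5 members, Gas5, Snhg1, Snhg3, Snhg12 and Taf1d, and 18.3% of all genes tested.

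The scale of a nuclear library is a further measured difference. When the libraries were rescaled by median-of-ratios, Gas5 (-1.04), Snhg1 (-1.22), Snhg12 (-2.51) and Taf1d (-1.80) were called, where 6.9% of all genes fell (344 rose and 908 fell, in place of 68 and 230), and the median of all genes tested was -0.11. Under quantile normalization 3 members fell, with 4.89% of all genes (517 rose and 643 fell), and after rescaling without small RNA entries 3, with 4.89% as well. Under each of 3 scalings all 10 members kept a negative log2 fold change in the nucleus.

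**Figure D3:**
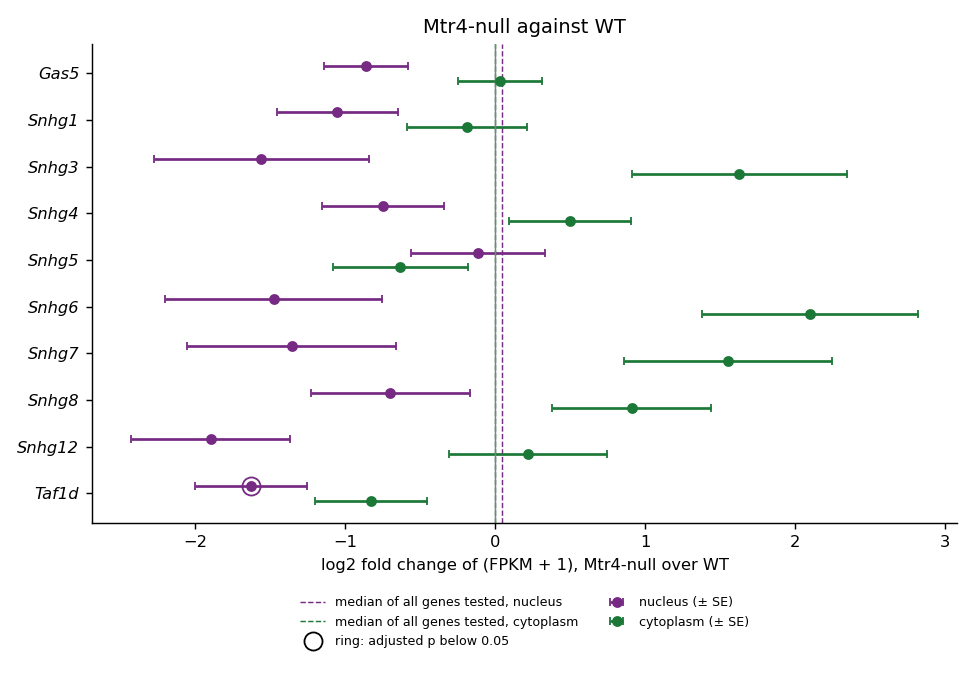
Log2 fold change of each snoRNA host gene between Mtr4-null and WT (horizontal axis, positive is higher in Mtr4-null) in the nucleus (purple, upper point) and the cytoplasm (green, lower point), with bars of 1 standard error from limma and a ring at an adjusted p below 0.05. Dashed lines are the medians of all genes tested, 0.04 and 0. All purple points are below 0, the ring marks Taf1d in the nucleus, and Snhg3, Snhg6, Snhg7 and Snhg8 have their green points at 0.91 or more.

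In the cytoplasm the members did not share a direction. Snhg3, Snhg6, Snhg7 and Snhg8 were higher in every Mtr4-null cytoplasm than in every WT cytoplasm (23% of all genes tested lay apart that way), Snhg5 and Taf1d were lower in every one (20.9%), and Gas5, Snhg1, Snhg4 and Snhg12 overlapped. With 4 groups in the fit 0 of 10 members passed the test, where 1.88% of all genes tested passed, 154 higher and 94 lower. Rescaling without small RNA entries gave 143 genes higher and 54 lower, again with 0 members. A limma fit of the 6 cytoplasms alone, in which the spread of the nuclei plays no part, called 3 members higher, Snhg6, Snhg7 and Snhg8, and 0 lower, where 13.3% of all genes tested rose and 9.85% fell. With library weights 5 members rose (20.6% of all genes) and 2 fell (15.9%). At an unadjusted p below 0.05 the fit of 4 groups had Snhg3, Snhg6, Snhg7 and Taf1d, and 12.6% of all genes tested.

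Snhg6 had the largest change on the log2(FPKM + 1) scale, at 23.7 ± 6.96 FPKM in Mtr4-null cytoplasms and 4.66 ± 0.972 FPKM in WT cytoplasms (SD, n = 3 each). Its change was 2.1 ± 0.72 (limma adjusted p = 0.173 with 4 groups and 0.0052 with the cytoplasms alone). The ratio of means was 5.09 for Snhg6, and it was larger for 3 members of lower level, 15.3 for Snhg8, 9.63 for Snhg7 and 6.83 for Snhg3. It passed with 4 groups when replicate 2 of the nuclei labelled Mtr4-null, where Snhg6 was listed at 0, was left out (adjusted p = 0.0117, with 2.04% of all genes higher). In Mtr4-null cytoplasms Snhg6 was thereby the member with the highest mean, while in WT cytoplasms it was the third. Snhg7 averaged 3.39 ± 2.53 FPKM in Mtr4-null cytoplasms and 0.352 ± 0.159 FPKM in WT cytoplasms (SD, n = 3 each), a log2 fold change of 1.55 ± 0.70 (limma adjusted p = 0.363 with 4 groups and 0.0391 with the cytoplasms alone). Snhg8 averaged 1.09 ± 0.721 FPKM in Mtr4-null cytoplasms and 0.0712 ± 0.0643 FPKM in WT cytoplasms (SD, n = 3 each), a log2 fold change of 0.91 ± 0.53 (limma adjusted p = 0.559 with 4 groups and 0.0443 with the cytoplasms alone).

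Snhg3 had 3.33, 1.80 and 7.46 FPKM in Mtr4-null cytoplasms, against 0, 1.40 and 0.442 FPKM in WT cytoplasms, and did not pass either fit (1.63 ± 0.72, limma adjusted p = 0.349 with 4 groups and 0.0609 with the cytoplasms alone). The Mtr4-null values lay above the WT values by a small margin, 1.80 against 1.40 FPKM at the closest. Taf1d averaged 3.69 ± 1.65 FPKM in Mtr4-null cytoplasms and 7.09 ± 1.46 FPKM in WT cytoplasms (SD, n = 3 each), with a change of -0.83 ± 0.37 (limma adjusted p = 0.369). Snhg5 averaged 2.44 ± 0.451 FPKM in Mtr4-null cytoplasms and 4.38 ± 1.14 FPKM in WT cytoplasms (SD, n = 3 each), with a change of -0.63 ± 0.45 (limma adjusted p = 0.7). Snhg1, the most abundant member in WT cytoplasms, was at 13.7 ± 5.68 FPKM in Mtr4-null cytoplasms and 15.5 ± 5.23 FPKM in WT cytoplasms (SD, n = 3 each), and Gas5 at 0.364 ± 0.124 FPKM in Mtr4-null cytoplasms and 0.336 ± 0.16 FPKM in WT cytoplasms. For Snhg1 and Gas5 the difference was smaller than the spread between replicates.

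The summed cytoplasmic level of the 10 members was 53.6, 54.1 and 53.1 FPKM in Mtr4-null cytoplasms, against 31.1, 34.2 and 34.4 FPKM in WT cytoplasms. Without Snhg6 the sums were 28.1, 24.5 and 37.1 FPKM in Mtr4-null cytoplasms and 25.7, 29.2 and 30.9 FPKM in WT cytoplasms, which overlap. Snhg1 and Taf1d make up much of these sums. Without those 2 genes the sums were 34.7, 42.8 and 31.1 FPKM in Mtr4-null cytoplasms, against 12.5, 11.3 and 8.24 FPKM in WT cytoplasms. With all 3 genes left out they were 9.21, 13.2 and 15.1 FPKM in Mtr4-null cytoplasms, against 7.1, 6.29 and 4.69 FPKM in WT cytoplasms, which do not overlap. Nuclear RNA in the cytoplasm samples was looked at with 7 nuclear noncoding RNAs. Their summed level was 5.39, 10.7 and 9.16 FPKM in Mtr4-null cytoplasms and 5.48, 5.52 and 7.80 FPKM in WT cytoplasms, against 136.4 FPKM or more in each nucleus, and Malat1 was at 1, 3.24 and 2.29 FPKM in Mtr4-null cytoplasms and 2.72, 0.468 and 0.365 FPKM in WT cytoplasms. Of the 7, 5 were tested, with 4 log2 fold changes above 0 and 1 below. In the limma fit of the cytoplasms alone 2 of these 5, Airn and Kcnq1ot1, rose and 0 fell, where 13.3% of all genes rose. With 4 groups in the fit 0 rose and 0 fell. The 113 snoRNA entries without Scarna2 summed to 4988, 3563 and 5077 FPKM in Mtr4-null cytoplasms and to 1549, 238 and 208 FPKM in WT cytoplasms. The part of these differences in the member values was not tested.

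**Figure D4:**
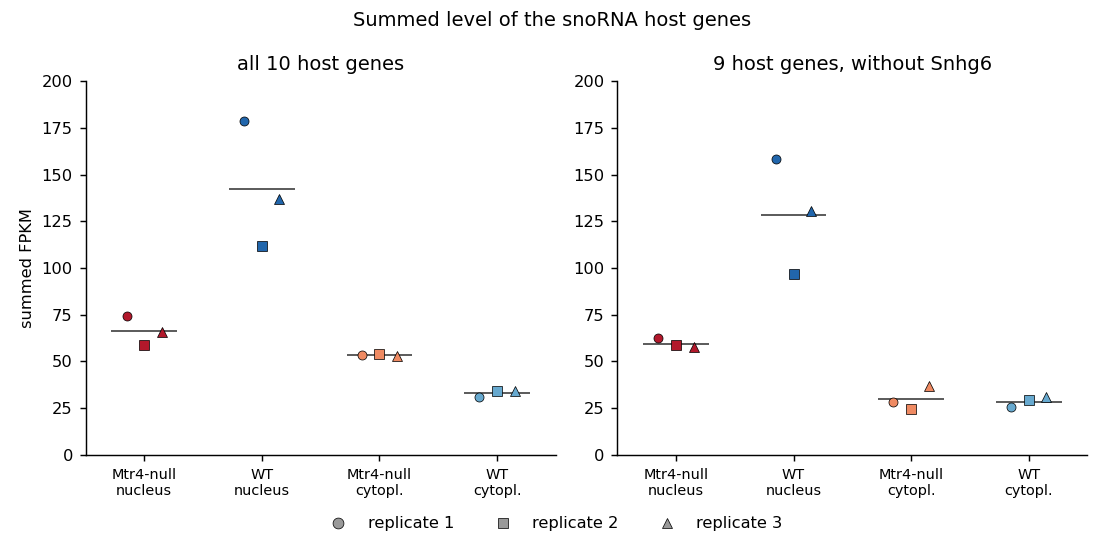
Summed FPKM (vertical axis) of all 10 snoRNA host genes (left) and of the 9 without Snhg6 (right) in each library, for Mtr4-null nucleus, WT nucleus, Mtr4-null cytoplasm and WT cytoplasm from left to right. Each symbol is a library and each line the mean of 3. Nuclei labelled Mtr4-null lie below WT nuclei in both panels, and the cytoplasms of the genotypes separate in the left panel and overlap in the right one.

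The difference between the genotype effects of the 2 compartments was tested as an interaction. The interaction, the log2 effect in the nucleus minus that in the cytoplasm, was negative for 9 of 10 members, with a median of -1.43 beside 0.06 for all genes tested. By limma 0 of 10 members passed after adjustment, where 0.122% of all genes did (3 positive and 13 negative, against 14 and 169 after median-of-ratios rescaling and 5 and 108 after rescaling without small RNA entries, both with 0 members), and 7 of 10 were below an unadjusted p of 0.05, where 10% of all genes were. The lowest was that of Snhg6 at -3.58 ± 1.02 (limma adjusted p = 0.182), then Snhg3 at -3.19 ± 1.01 (adjusted p = 0.246) and Snhg7 at -2.91 ± 0.98 (adjusted p = 0.277). Taf1d, which had negative changes in both compartments, was at -0.80, and Snhg5 was the member with a positive value, 0.52. Snhg6 passed without replicate 1 of the nuclei labelled Mtr4-null (adjusted p = 0.0496, with 1.29% of all genes), Snhg12 passed without replicate 3 (adjusted p = 0.0103, with 2.2%), and both passed without these 2 libraries (11% of all genes). With library weights 6 members passed, all negative, where 7.3% of all genes did: Snhg3 (-5.06, limma adjusted p = 0.0111), Snhg4, Snhg6, Snhg7, Snhg8 and Snhg12. The 2 genotype effects come from separate libraries and share no control sample. Since Snhg12 passed the filter on low values only through WT nuclei, its interaction calls are no separate support.

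The snoRNAs inside the hosts could be followed for 11 of the 35 nested genes, those with an entry of their own, and 7 of them passed the filter on low values. Snord47 in Gas5 and Snord99 in Snhg12 were listed at 0 in all 12 libraries. FPKM of RNAs shorter than the sequenced fragments rest on a very small effective length and are inflated, so levels are not compared with those of the hosts. At least 1 library above 0 was found for 6 of 11 in nuclei labelled Mtr4-null, for 8 in WT nuclei, for 4 in Mtr4-null cytoplasms and for 4 in WT cytoplasms.

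Snhg7 carries Snora17 and Snora43, guides of the box H/ACA kind, which direct the conversion of uridine to pseudouridine. Their sequences, from the GENCODE M21 transcripts, are shown because the pair lie in 1 host and had different values in the libraries. Capitals mark the 2 runs of at least 8 bases that they share.
Snora17: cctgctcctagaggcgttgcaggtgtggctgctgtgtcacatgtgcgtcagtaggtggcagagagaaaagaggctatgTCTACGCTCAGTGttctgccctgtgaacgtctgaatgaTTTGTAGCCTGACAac
Snora43: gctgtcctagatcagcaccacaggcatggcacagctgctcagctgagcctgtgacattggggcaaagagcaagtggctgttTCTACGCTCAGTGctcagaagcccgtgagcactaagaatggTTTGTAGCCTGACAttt
They have 132 and 139 bases, and a global alignment has 67.8% identical positions over 146 columns. The longest shared run has 14 bases and includes the ACA box, after which 2 bases follow in Snora17 and 3 in Snora43.

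Snora17 was at 590, 863 and 280 FPKM in nuclei labelled Mtr4-null and 1208, 432 and 1343 FPKM in WT nuclei, which overlap (limma adjusted p = 0.737). It was at 88.0, 262 and 73.9 FPKM in Mtr4-null cytoplasms, against 24.7, 0 and 0 FPKM in WT cytoplasms. The cytoplasmic log2 fold change on the scale of FPKM + 1 was 5.35 ± 0.97 (limma adjusted p = 0.011, and 0.0385 with the cytoplasms alone), and all Mtr4-null cytoplasms lay above all WT cytoplasms. The call was lost without WT cytoplasm replicate 2 or 3 or without Mtr4-null cytoplasm replicate 2 (highest adjusted p = 0.0754), and with no filter on low values (adjusted p = 0.0669). Host and snoRNA were thus both higher in all Mtr4-null cytoplasms, with Snhg7 at 2.52, 6.24 and 1.41 FPKM, and replicate 2 was the highest for both. Of all genes tested 23% lay apart that way. The 113 snoRNA entries without Scarna2 also summed higher, at 4988, 3563 and 5077 FPKM against 1549, 238 and 208 FPKM in WT cytoplasms. Replicate 2 was also the highest Mtr4-null cytoplasm for Scarna2 (24160 FPKM) and Malat1 (3.24 FPKM). A link between host and snoRNA was not tested.

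Snora43 was listed at 0 in all 3 nuclei labelled Mtr4-null and at 174, 141 and 426 FPKM in WT nuclei, and it was at 0 in all 6 cytoplasms. It passed the filter on low values only through the 3 WT nuclei, so it had to differ there, and its values are given without a test. No fold is given against a group listed at 0. Replicate 1 of the nuclei labelled Mtr4-null, whose Skiv2l2 was above every WT nucleus, also had Snora43 listed at 0.

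**Figure D5:**
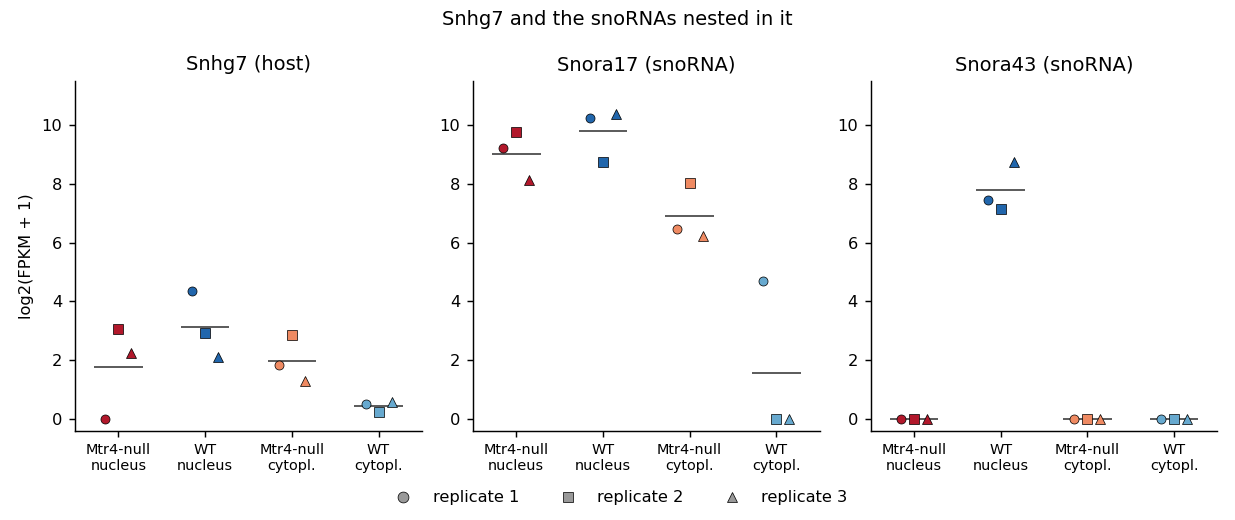
Level of the host Snhg7 and of the snoRNAs Snora17 and Snora43 nested in it, as log2(FPKM + 1) on the vertical axis, in Mtr4-null nucleus, WT nucleus, Mtr4-null cytoplasm and WT cytoplasm from left to right. Each symbol is a library and each line the mean of 3. Snora17 is above 0 in all Mtr4-null cytoplasms and in 1 WT cytoplasm, and Snora43 is above 0 in the 3 WT nuclei.

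Among the other nested snoRNAs, 5 were tested, and 0 passed between the genotypes by limma, with Snora16a in the nucleus the 1 below an unadjusted p of 0.05. Snord22, in an intron of Snhg1, was at 1930, 463 and 225 FPKM in nuclei labelled Mtr4-null and 1714, 3956 and 4050 FPKM in WT nuclei (limma adjusted p = 0.274). Snora74a, nested in Snhg4, was at 1410, 1104 and 344 FPKM in nuclei labelled Mtr4-null and 1931, 1970 and 1865 FPKM in WT nuclei, without overlap (limma adjusted p = 0.663). Both hosts had lower means there too. Snora24, in Snhg8, was at 1214, 1656 and 0 FPKM in nuclei labelled Mtr4-null and 268, 313 and 626 FPKM in WT nuclei (limma adjusted p = 0.727). In the cytoplasms these 3 were listed at 0 in all but 1 or 2 libraries, with 44.7 FPKM as their highest value. Of the snoRNAs in Snhg12, Snora16a was listed at 0 in all nuclei labelled Mtr4-null and at 63.1, 307 and 0 FPKM in WT nuclei, Snora44 at 0, 314 and 152 FPKM in nuclei labelled Mtr4-null and 0, 0 and 244 FPKM in WT nuclei, and each of these 2 was above 0 in 1 Mtr4-null cytoplasm, Snora16a at 49.2 FPKM and Snora44 at 18.0 FPKM. Snora61 was above 0 in 1 library, at 1611 FPKM in replicate 3 of the nuclei labelled Mtr4-null. Snord87, in Snhg6, was above 0 in WT nucleus replicate 1 alone, at 1063 FPKM. These 4 did not give a level in every library of any group.

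Genes of the pathways around the hosts were looked at by list, all with the fit of 4 groups. Among 13 factors of nonsense-mediated decay, 0 rose and 0 fell between the genotypes in either compartment by limma, with 1 in the nucleus and 0 in the cytoplasm at an unadjusted p below 0.05. Among 13 nuclear exosome subunits 0 rose and 0 fell likewise, with 2 below that p in each compartment. Of all genes tested 18.3% were below that p in the nucleus and 12.6% in the cytoplasm. In the fit of the cytoplasms alone, where 13.3% of all genes rose and 9.85% fell, Upf3b of the decay factors and 3 exosome subunits (Exosc2, Exosc7 and Exosc10) were called. Of 18 proteins of the snoRNA particles and their assembly, Dkc1, the enzyme that makes pseudouridine under the guidance of box H/ACA snoRNAs, fell in the cytoplasm, and it carries snoRNAs itself. In the nucleus 0 of the 18 passed, with 6 below an unadjusted p of 0.05. Shq1 rose there under median-of-ratios rescaling and quantile normalization, where 344 and 517 of all genes rose. It was not called after rescaling without small RNA entries. Dkc1 was at 17.4, 12.7 and 15.1 FPKM in Mtr4-null cytoplasms, against 31.6, 40.2 and 37.1 FPKM in WT cytoplasms (-1.22 ± 0.30, limma adjusted p = 0.049), and it was the single one of 34 protein-coding hosts to pass there. With the cytoplasms alone 6 of the 34 fell (Dkc1, Hspa8, Nop56, Nop58, Rpl3 and Rpl7a), and Rian rose among the 3 tested noncoding hosts outside the members. Under the 3 scalings Dkc1 did not pass (-1.17 to -1.09, adjusted p of 0.0829 to 0.155). Of 8 tested neighbours of the hosts, Prss12, which lies beside Snhg8, fell in the cytoplasm, at 1.16, 0.873 and 0.814 FPKM in Mtr4-null cytoplasms against 2.99, 7.22 and 4.93 FPKM in WT cytoplasms (-1.58 ± 0.35, limma adjusted p = 0.0291), and it did not pass under the 3 scalings (adjusted p of 0.0883 to 0.172). Of 5 tested nuclear noncoding RNAs, Airn and Ipw, both transcripts of imprinted regions, fell in nuclei labelled Mtr4-null (limma log2 fold changes -1.85 ± 0.45 and -3.20 ± 0.64), also under each of the 3 scalings. Ipw kept its call without replicate 1 and without replicates 1 and 3 of those nuclei (adjusted p = 0.000272 and 0.0011) and lost it without replicate 3 (adjusted p = 0.0557) or WT nucleus replicate 1 or 3. Airn was called without replicate 1 and without both (adjusted p = 0.00261 and 0.00277), and lost its call in 10 of the 12 fits with a library left out (highest adjusted p = 0.173). Neither passed with the nuclei alone, a pseudocount of 0.1 or library weights.

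Some hosts overlap genes of the opposite strand in GENCODE M21: Gas5 with Zbtb37, Snhg6 with Mcmdc2, and Taf1d with 4931406C07Rik and Cep295. Since the use of strand in the authors' counting is not given, reads of such partners cannot be told apart. Mcmdc2, entered as 6030422M02Rik, was at 41.8, 19.7 and 22.4 FPKM in nuclei labelled Mtr4-null and 79.4, 44.9 and 82.2 FPKM in WT nuclei, and at 0.303, 0.834 and 0.0925 FPKM in Mtr4-null cytoplasms and 0.495, 0.357 and 0.110 FPKM in WT cytoplasms. In the cytoplasms it was below Snhg6 in every library, and in the nuclei above it.

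The 5 genes outside the list whose profile over the 12 libraries was most like the mean standardized profile of the members, by Pearson's r on log2(FPKM + 1), were 2310069B03Rik (0.98), Nfasc (0.98), L3mbtl4 (0.98), Sgca (0.98) and 8430403D17Rik (0.98). The points share libraries and compartments, and the values describe 12 libraries without a test. 2310069B03Rik was at 2.77 to 4.87 FPKM in nuclei labelled Mtr4-null, 10.9 to 25.7 FPKM in WT nuclei, 0.258 to 0.398 FPKM in Mtr4-null cytoplasms and 0 to 0.0447 FPKM in WT cytoplasms. L3mbtl4 was at 1.76 to 2.27 FPKM in nuclei labelled Mtr4-null, 6.51 to 8.54 FPKM in WT nuclei, 0.578 to 0.945 FPKM in Mtr4-null cytoplasms and 0.318 to 0.513 FPKM in WT cytoplasms.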

How the data were processed

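The authors deposited FPKM per gene. The submitters' processing notes name TopHat2 2.1.1, Cufflinks 2.2.1 and the build mm9. How each tool was used, the annotation, strand handling and depth were not given in the sources. FPKM are shares of a library, so an abundant RNA class lowers all others, and fragment length biases short RNAs. Tests covered the 13157 genes that reached 1 FPKM in 3 or more of the 12 libraries, on log2(FPKM + 1) with limma 3.58.1 in R 4.3.3, with 1 mean per group, trended moderated variances, two-sided p-values and Benjamini-Hochberg adjustment within each of 5 comparisons, and calls at 0.05. The step was run on simulated data in which each gene had 1 spread for all 4 groups. That setting cannot show how the fit of 4 groups behaves where the spread differs between groups. Members and gene lists were chosen with earlier results of these data known. Named genes are the members, Skiv2l2, nested snoRNAs in the table, called genes of the other lists (up to 4 per list and comparison) and the 5 most alike genes. RefSeq (GRCm38.p6) and GENCODE M21 gave names, nesting, strands and sequences; no coordinate was moved between builds. Scaling, pseudocount, filter, samples in the fit, library weights, a replicate block and each library left out were tried as alternatives.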

Additional observations from a re-analysis of the deposited data

Results flagged for a closer look

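Snora43, a snoRNA nested in Snhg7, stands here because its limma interaction, the genotype effect in the nucleus minus that in the cytoplasm, had an adjusted p of 5.13e-06. It was listed at 0 in all nuclei labelled Mtr4-null, had 174, 141 and 426 FPKM in WT nuclei, and was listed at 0 in all cytoplasms. With both cytoplasm groups at 0 the interaction is the same number as the nuclear difference, and the gene passed the filter on low values only through the WT nuclei, so this p is not a separate test of the compartments and supports nothing. The cause was not tested.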

How the results depend on the processing

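All settings in the list that follows give counts of genes and then of members called, in the order Mtr4-null against WT in the nucleus, the same in the cytoplasm, nucleus against cytoplasm in Mtr4-null, the same in WT, and the interaction, where they were 298, 248, 4230, 7509 and 16 genes and 1, 0, 5, 8 and 0 members as reported. Median-of-ratios scaling gave 1252, 229, 646, 3834 and 183 genes and 4, 0, 4, 9 and 0 members. Quantile normalization gave 1160, 97, 507, 3404 and 51 genes and 3, 0, 2, 9 and 0 members. Rescaling without small RNA entries gave 883, 197, 529, 3455 and 113 genes and 3, 0, 4, 9 and 0 members. A pseudocount of 0.1 gave 102, 140, 3217, 6945 and 12 genes and 0, 0, 4, 8 and 0 members. No filter on low values gave 599, 139, 1201, 7598 and 111 genes and 1, 0, 2, 8 and 0 members. Fits of a compartment or genotype alone, which give no interaction, had 5, 3050, 123 and 8958 genes and 0, 3, 0 and 10 members. Library weights gave 153, 4802, 8342, 9352 and 961 genes and 1, 7, 5, 10 and 6 members. Without both doubted nuclei labelled Mtr4-null there were 3966, 1371, 8471, 9402 and 1450 genes and 4, 1, 3, 10 and 2 members. Leaving out each library in turn gave 125 to 1347, 56 to 614, 177 to 8522, 5724 to 8607 and 5 to 289 genes and 0 to 2, 0 to 1, 0 to 6, 7 to 9 and 0 to 1 members. The replicate block gave 377, 328, 5535, 7916 and 11 genes and 2, 0, 6, 8 and 0 members. Same-numbered libraries had correlations of -0.154 to 0.303 in their deviations from the group means. Between nucleus and cytoplasm these were 0.0583, 0.303 and 0.117 in Mtr4-null, where unlike numbers gave -0.215 to 0.149. In WT they were -0.133, -0.0118 and -0.0424, where unlike numbers gave -0.115 to 0.13. The labels do not say that the numbers pair samples, and they were not taken to do so. Pairing within Mtr4-null remains possible.

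Directions turned for uncalled values. Within Mtr4-null oocytes Snhg3 and Snhg7, at -0.31 and -0.21, were at 0.30 and 0.37 with median-of-ratios scaling, 0.11 and 0.16 with quantile normalization, 0.14 and 0.23 when rescaled, and 0.82 and 1.08 without both doubted nuclei. Leaving out both doubted nuclei also gave Snhg1 -0.30, Snhg12 -0.36 and Skiv2l2 -0.49 in that comparison, and Snhg8 0.94 in the nucleus and 0.024 in the interaction. With library weights Snhg5 was at 0.79 and Skiv2l2 at 0.089 in the nucleus, and Snhg12 at -0.29 within Mtr4-null. Quantile normalization put Gas5 at -0.043 in the cytoplasm. Leaving out 1 library gave ranges across 0 for Snhg5 in the nucleus (-0.60 to 0.15), for Gas5 (-0.056 to 0.12), Snhg1 (-0.47 to 0.11) and Snhg12 (-0.030 to 0.40) in the cytoplasm, and within Mtr4-null for Snhg3 (-0.88 to 0.64), Snhg7 (-0.86 to 0.67), Snhg12 (-0.36 to 0.88), Snhg1 (-0.0080 to 0.58) and Skiv2l2 (-0.068 to 1.39). The cause was not tested. Depth is unknown, so what a listed 0 could hide is unknown too.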
